A study of Homo sapiens with 3 samples.

Results

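The genes described here are 44 histone and DNA modifying enzymes outside the PRC2 methyltransferases and the KDM6 demethylases of histone H3 lysine 27. One of them, KDM7A, also acts on dimethylated lysine 27. They were named as a list, by function, and each was read at the probe set of its 1 gene symbol whose log2 signal, averaged over the 3 arrays, was highest. All 44 were on the array, among 19775 genes that could be named, and 133 probe sets carried their symbols. Of the 44, 43 were over the signal floor in all 3 arrays, and TET1 was under it in each (log2 3.80 in all 3).

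PANC-1 is an established cell line from a human pancreatic ductal adenocarcinoma, and RNA came from 3 stable derivatives of it. One line expressed wild-type JMJD3, one expressed mutant JMJD3, and the control carried the blank MSCV retroviral vector. The lines received no further treatment, and each was measured on 1 biotin-labelled Affymetrix 3' expression array. The labels do not give the mutation, the age of the cultures, or whether a line is 1 clone or a pool. With 1 array per line there is no replicate check, so no test was run, no p-value is given, and line and condition cannot be told apart. JMJD3 is the product of KDM6B, which removes methyl groups from lysine 27 of histone H3.

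Histone methyltransferases and demethylases set and remove methyl groups at fixed lysines, some of which mark active chromatin (lysines 4, 36 and 79 of histone H3) and some silent chromatin (lysine 9). Acetyltransferases and deacetylases act on acetyl groups, which accompany open chromatin. DNMT enzymes methylate cytosine in CG dinucleotides, and TET enzymes oxidise that mark toward its removal. Genes of this system, among them KMT2C, KMT2D and the SWI/SNF subunits, are known to be mutated in pancreatic cancer.

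A log2 difference below is the signal of the first named array minus that of the second, after raising signals under the pooled median of all values (log2 5.48) to it. A gene was counted as higher or lower at 2-fold, and it was described in full from 1.5-fold in any comparison, which 14 of the 43 measured enzymes reached. Levels are not compared between genes, since each probe set has its own brightness. The array medians were log2 5.48 for wild-type JMJD3, 5.49 for mutant JMJD3 and 5.50 for control. KDM6B was read by 5 probe sets, and the brightest read log2 7.66 with wild-type JMJD3, 7.65 with mutant JMJD3 and 7.60 in control. Its probe set 1556067_a_at exceeded control 2.30-fold with wild-type JMJD3 and 1.89-fold with mutant JMJD3, so the check of the labels depends on the probe set. Of 7 markers of ductal and simple epithelium 6 were over the floor in every array, the exception being the cadherin CDH1 at log2 4.62 in all 3. The 3 leukocyte markers and 2 acinar markers analysed were under the floor throughout, while 1 of 3 endothelial and 3 of 4 fibroblast markers, among them the collagen COL1A1, were over it in each array.

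Most of the enzymes differed little with wild-type JMJD3. Against control, 22 of 43 were higher, 16 lower and 5 equal at the 2 decimals deposited, with a median log2 difference of 0.05, which was also the median over all 12697 measured genes. The deacetylase HDAC9 and the demethylase KDM7A were lower by 2-fold or more, and 0 of the 43 were higher by that much. Among all measured genes 1.31% were lower and 0.953% higher by 2-fold or more. At 1.5-fold, HDAC9, KDM7A, KMT2C, KAT6A and KMT2A were lower and KAT5 was higher, beside 9.08% of all genes lower and 7.15% higher. A share of 6 of 43 lies near that background.

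**Figure D1:**
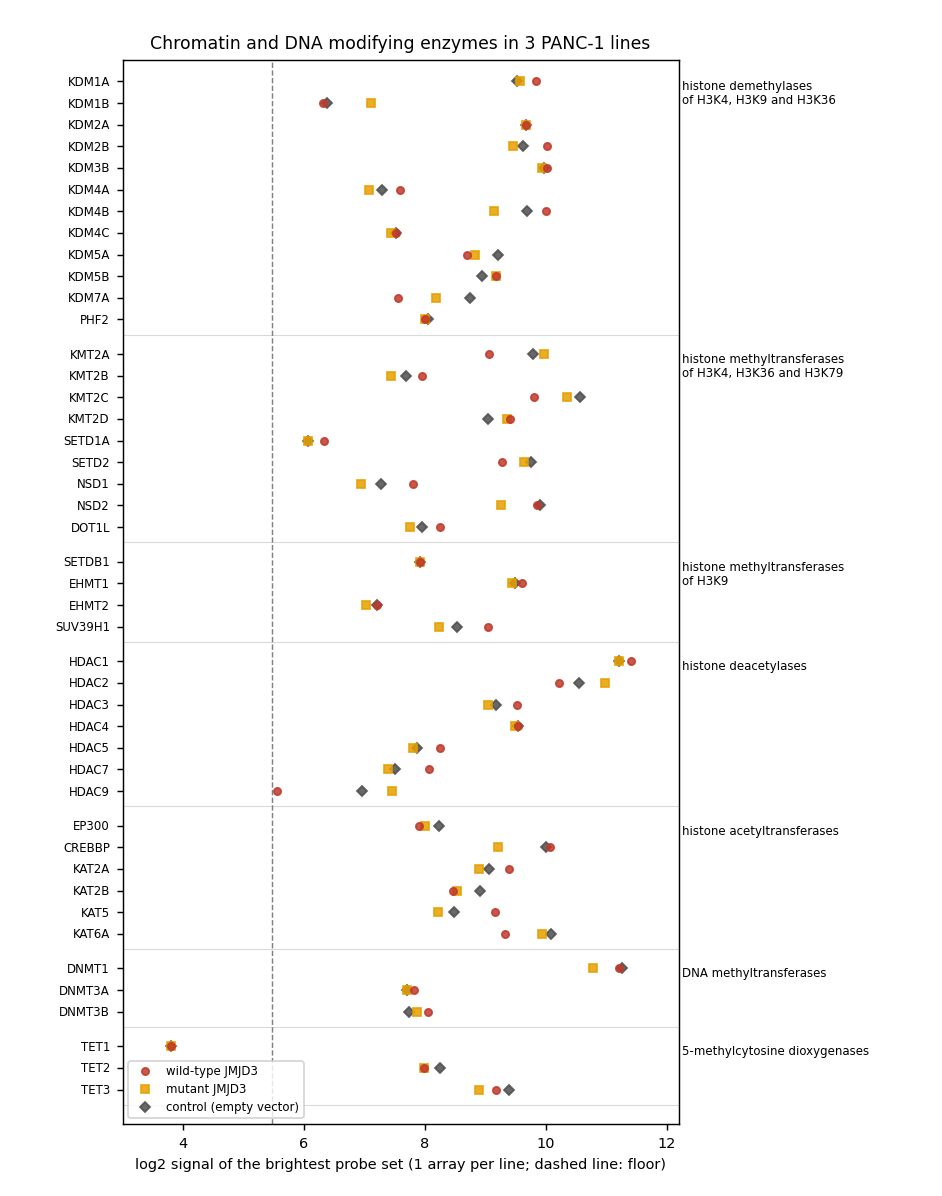
Log2 signal of the brightest probe set of each of the 44 enzymes (rows, by class) in the wild-type JMJD3, mutant JMJD3 and control arrays (1 point per array, no error bars since each line has 1 array). The wild-type JMJD3 point of HDAC9 lies at log2 5.56, just over the dashed floor of 5.48, and TET1 lies under the floor in all arrays.

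The start regions of these genes are printed except for KAT6A, which, like HDAC5 and DOT1L, had no window in the reference. They are shown for their CG dinucleotides, in capitals below, which are the substrate of the DNMT and TET enzymes. The CXXC domain of enzymes such as KMT2A binds these dinucleotides. The windows are RefSeq's for build GRCh38.p14, from 250 bases before to 50 after the annotated start, on the gene's own strand. They are chr7:140176934-140177233 (minus) for KDM7A, chr11:118436242-118436541 (plus) for KMT2A, chr7:152435954-152436253 (minus) for KMT2C, chr7:18495499-18495798 (plus) for HDAC9 and chr11:65712002-65712301 (plus) for KAT5. HDAC9 has 5 listed starts, of which the first listed is shown.
KDM7A: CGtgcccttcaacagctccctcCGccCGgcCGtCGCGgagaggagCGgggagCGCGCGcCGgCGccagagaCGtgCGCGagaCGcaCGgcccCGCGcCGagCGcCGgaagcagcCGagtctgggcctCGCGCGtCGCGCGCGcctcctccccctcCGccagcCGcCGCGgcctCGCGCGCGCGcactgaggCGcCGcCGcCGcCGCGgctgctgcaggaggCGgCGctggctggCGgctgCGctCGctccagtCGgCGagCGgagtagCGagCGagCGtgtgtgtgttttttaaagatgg
KMT2C: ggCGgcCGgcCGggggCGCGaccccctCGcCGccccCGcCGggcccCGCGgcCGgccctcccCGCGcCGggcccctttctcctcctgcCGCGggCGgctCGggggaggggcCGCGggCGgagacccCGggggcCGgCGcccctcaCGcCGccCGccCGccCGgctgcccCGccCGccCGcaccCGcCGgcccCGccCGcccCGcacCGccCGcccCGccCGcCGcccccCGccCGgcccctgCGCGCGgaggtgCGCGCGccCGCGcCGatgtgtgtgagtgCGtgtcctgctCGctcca
KMT2A: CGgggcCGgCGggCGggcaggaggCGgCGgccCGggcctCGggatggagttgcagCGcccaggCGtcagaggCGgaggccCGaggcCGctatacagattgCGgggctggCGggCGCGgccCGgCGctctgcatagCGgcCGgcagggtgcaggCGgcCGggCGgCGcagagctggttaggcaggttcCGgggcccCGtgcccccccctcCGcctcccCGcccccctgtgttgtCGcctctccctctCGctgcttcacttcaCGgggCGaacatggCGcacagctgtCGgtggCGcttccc
HDAC9: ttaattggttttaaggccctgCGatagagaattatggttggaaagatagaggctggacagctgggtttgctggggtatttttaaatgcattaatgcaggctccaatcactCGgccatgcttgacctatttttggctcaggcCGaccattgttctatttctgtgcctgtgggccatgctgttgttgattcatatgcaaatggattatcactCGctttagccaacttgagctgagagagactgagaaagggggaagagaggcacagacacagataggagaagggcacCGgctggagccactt
KAT5: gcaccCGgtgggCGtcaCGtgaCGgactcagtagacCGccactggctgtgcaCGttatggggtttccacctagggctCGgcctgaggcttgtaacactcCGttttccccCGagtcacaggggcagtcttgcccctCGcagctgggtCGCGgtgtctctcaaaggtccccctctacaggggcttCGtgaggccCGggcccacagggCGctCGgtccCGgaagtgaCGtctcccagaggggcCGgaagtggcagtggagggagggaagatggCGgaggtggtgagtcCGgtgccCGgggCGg

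The KDM7A and KMT2C windows each held 56 CG dinucleotides, more than 99.7% of the 27305 genes with a window in that table. KMT2A held 36, KAT5 held 23, and the HDAC9 window shown held 5, while the other HDAC9 starts held 41, 5, 5 and 0. The median over all windows was 14, and it was 30 over the 41 enzymes that had a window, with a range of 3 to 63. The GC box GGGCGG, searched on both strands, was in 25 of the 41 (61.0%) and in 44.6% of all windows. It occurred 2 times on the gene's own strand and 13 times on the opposite strand of the KMT2C window, 2 times and 1 time in KMT2A, and 1 time each in KDM7A and KAT5, with none in the HDAC9 window. The TATA box TATAAA was in 0 of the 41 windows against 12.0% of all, and the CCAAT box CCAAT in 19.5% against 35.7%. HDAC9, the enzyme with the largest difference, was thus shown from a CG-poor start with a CCAAT box on each strand, though which start its probe set reads is not given. These matches describe the windows, and none was tied to a difference in signal.

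Among the demethylases, KDM7A had the largest difference from control. KDM7A removes dimethyl marks from lysines 9 and 27 of histone H3, and it read log2 7.56 with wild-type JMJD3, 8.18 with mutant JMJD3 and 8.75 in control. It was lowest in the wild-type array, 2.28-fold under control, and the mutant array was 1.48-fold under control. Its other probe set, 225142_at, was also lower in both than in control (log2 6.55 and 6.13, against 7.12), but there the mutant array was the lowest. The direction between wild-type and mutant JMJD3 therefore differed between its probe sets, and the median over them gave a log2 difference of -0.10.

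KDM1B, which removes methyl groups from lysine 4 and has a role in setting DNA methylation in mouse oocytes, stood apart in the mutant array. It read log2 6.31 with wild-type JMJD3, 7.11 with mutant JMJD3 and 6.39 in control. The mutant array was 1.65-fold over control, and wild-type JMJD3 was 1.74-fold under mutant JMJD3. The other probe set of KDM1B was under the floor in every array, so this rests on 1 probe set. Its paralog KDM1A, the LSD1 protein of the CoREST complex, read log2 9.84 with wild-type JMJD3, 9.57 with mutant JMJD3 and 9.52 in control, so the difference seen for KDM1B was not seen for it.

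KDM4B, which acts on trimethylated lysine 9, read log2 10.01 with wild-type JMJD3, 9.14 with mutant JMJD3 and 9.70 in control. Wild-type JMJD3 exceeded mutant JMJD3 1.83-fold, and all 5 of its other measured probe sets went the same way, with 212492_s_at differing 2.58-fold. Its relative KDM4A had the same order of arrays, at log2 7.59 with wild-type JMJD3, 7.07 with mutant JMJD3 and 7.30 in control, and wild-type over mutant was 1.43-fold. KDM4C differed by 0.08 between the same arrays at its brightest probe set. With the median over its probe sets, the log2 difference of KDM4B for wild-type against mutant JMJD3 was 0.33.

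The other demethylases showed smaller differences. KDM2B, a lysine 36 demethylase that brings a Polycomb complex to CG islands, with wild-type JMJD3 exceeded control 1.32-fold and mutant JMJD3 1.47-fold. KDM5A, a demethylase of trimethylated lysine 4, at its brightest probe set was 1.43-fold under control with wild-type JMJD3 and 1.31-fold under it with mutant JMJD3. Its 2 other measured probe sets did not show that difference, and one of them, 226371_at, exceeded control 1.57-fold with mutant JMJD3. KDM5B was 1.17-fold higher than control in both JMJD3 arrays at its brightest probe set. KDM2A read log2 9.68 in all arrays at its brightest probe set, while 208989_s_at and 208987_s_at were lowest with mutant JMJD3 (log2 7.44 and 6.91 there). KDM3B and PHF2 differed by at most 0.08 in any comparison at their brightest probe sets.

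The methyltransferases of lysine 4 went in both directions. KMT2C, a catalytic subunit of the complexes that monomethylate enhancers, read log2 9.81 with wild-type JMJD3, 10.36 with mutant JMJD3 and 10.57 in control, so that wild-type JMJD3 was 1.69-fold under control. All 3 of its other measured probe sets had the same order of arrays and larger differences. Of these, 222413_s_at read log2 6.06 with wild-type JMJD3, 7.80 with mutant JMJD3 and 8.10 in control, 4.11-fold under control, and 232940_s_at was 2.57-fold under control. Both of these probe sets share probes with other transcripts. With the median over all KMT2C probe sets, the log2 difference of wild-type JMJD3 from control was -1.70. Without shared probe sets it was -0.76. One further probe set with several symbols could belong to KMT2C or another gene and was left out.

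KMT2A, the mixed-lineage leukaemia gene MLL, was also lowest with wild-type JMJD3. It read log2 9.07 with wild-type JMJD3, 9.97 with mutant JMJD3 and 9.79 in control, so that wild-type JMJD3 was 1.65-fold under control and 1.87-fold under mutant JMJD3. Against control all 7 of its other measured probe sets were lower with wild-type JMJD3, by log2 differences of -0.78 to -0.03. For mutant JMJD3 against control only 2 of the 7 had the direction of the brightest one.

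Within this family KMT2D and KMT2B were not lowest with wild-type JMJD3, while KMT2E was. KMT2D, the partner of KMT2C in function, read log2 9.41 with wild-type JMJD3, 9.36 with mutant JMJD3 and 9.04 in control. Of its 4 other measured probe sets, 3 were also higher with wild-type JMJD3 than control, and 1 with mutant JMJD3. KMT2B, the closest relative of KMT2A, read log2 7.96 with wild-type JMJD3, 7.44 with mutant JMJD3 and 7.69 in control. KMT2E shares the family name, but the further lists described below hold it among the cofactor subunits, not the methyltransferases. It read log2 9.11 with wild-type JMJD3, 10.01 with mutant JMJD3 and 9.97 in control. Wild-type JMJD3 was 1.82-fold under control and 1.87-fold under mutant JMJD3, with the same sign in both other measured probe sets. SETD1A, of the complexes that trimethylate lysine 4 at promoters, with wild-type JMJD3 exceeded both others 1.20-fold.

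Among the enzymes of lysines 36 and 79, NSD1 and DOT1L had one order of arrays and SETD2 another. NSD1, which dimethylates lysine 36, read log2 7.81 with wild-type JMJD3, 6.94 with mutant JMJD3 and 7.27 in control, and wild-type JMJD3 exceeded mutant JMJD3 1.83-fold. Its other measured probe sets differed by 0.24 at most between the same arrays, and for wild-type JMJD3 against control none of the 3 had the direction of the brightest. For mutant JMJD3 against control 2 of the 3 had it. With the median over its probe sets, the log2 difference of wild-type from mutant JMJD3 was 0.09. NSD2 was 1.56-fold lower with mutant JMJD3 than in control at its brightest probe set (log2 9.86 with wild-type JMJD3, 9.26 with mutant JMJD3 and 9.90 in control). Of its 5 other probe sets 1 was lower there, 1 was equal and 3 were higher, so no direction can be given for NSD2. SETD2, which trimethylates lysine 36, read log2 9.28 with wild-type JMJD3, 9.65 with mutant JMJD3 and 9.76 in control, with the same direction in its other measured probe set. DOT1L, the lysine 79 methyltransferase, was 1.42-fold over mutant JMJD3 with wild-type JMJD3, but its other measured probe set went the other way.

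Of the 4 listed lysine 9 methyltransferases none was lower with wild-type JMJD3 than in either other array at its brightest probe set. Against control 2 of the 4 were higher and 2 equal, beside 34.2% of all genes lower. Related enzymes from the further lists described below went the other way. The wild-type array differed from control by -1.34 on the log2 scale for SETDB2 and by -0.26 for SUV39H2. Among the 4, SUV39H1, which trimethylates lysine 9 in pericentric heterochromatin, had the largest difference. It read log2 9.05 with wild-type JMJD3, 8.24 with mutant JMJD3 and 8.54 in control. Wild-type JMJD3 exceeded mutant JMJD3 1.75-fold and control 1.42-fold, on its single probe set, whose probes are shared with other transcripts. EHMT1 and EHMT2, which together dimethylate lysine 9, differed by at most 0.18 in any comparison at their brightest probe sets. At 202326_at, however, EHMT2 read log2 7.43 with wild-type JMJD3, 6.77 with mutant JMJD3 and 7.03 in control, 1.58-fold higher with wild-type than in the mutant array. SETDB1 read log2 7.92 in all arrays at its brightest probe set.

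**Figure D2:**
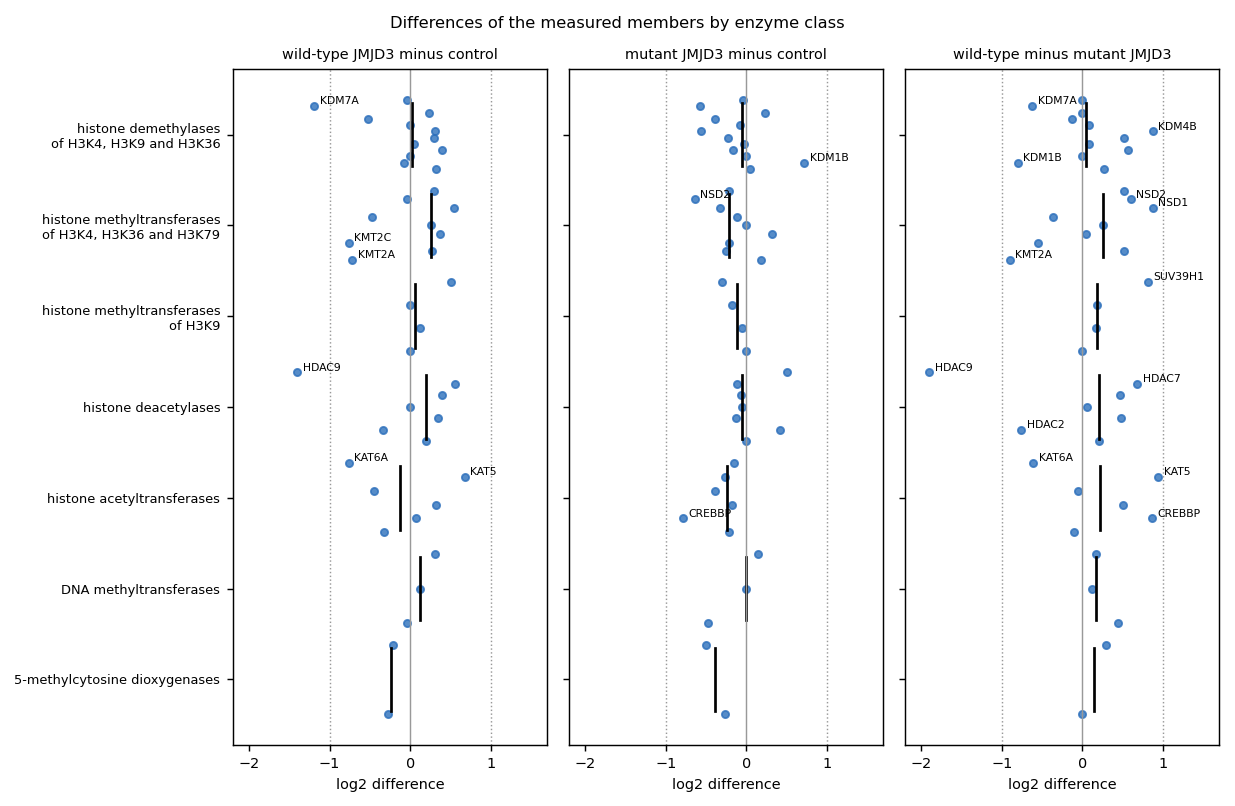
Log2 difference of each measured enzyme (points) by class (rows) for wild-type JMJD3 minus control, mutant JMJD3 minus control and wild-type minus mutant JMJD3. Black bars are class medians, dotted lines mark 2-fold, and names are given from 1.5-fold; HDAC9 lies farthest out, at -1.40 against control and -1.90 against mutant JMJD3.

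HDAC9, a class IIa deacetylase that works largely as a corepressor of MEF2 factors, had the largest difference of all 43. It read log2 5.56 with wild-type JMJD3, 7.46 with mutant JMJD3 and 6.96 in control. The wild-type array was near the floor, 2.64-fold under control and 3.73-fold under mutant JMJD3, while the mutant array was 1.41-fold over control. Its other 4 probe sets were under the floor in every array, so this rests on 1 probe set. Its log2 difference from control was -0.79 under a floor at the 60th percentile, and -0.88 under an offset instead of a floor, both short of 2-fold.

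The remaining class IIa members did not follow HDAC9. HDAC7 read log2 8.07 with wild-type JMJD3, 7.39 with mutant JMJD3 and 7.51 in control, and wild-type JMJD3 exceeded mutant JMJD3 1.60-fold. That rests on 1 probe set with shared probes, since the other HDAC7 probe set was under the floor in every array. HDAC5 had the same order of arrays, with wild-type JMJD3 1.38-fold over mutant JMJD3. HDAC4 differed by at most 0.06 at its brightest probe set, while 228813_at read log2 7.49 with wild-type JMJD3, 7.90 with mutant JMJD3 and 7.21 in control.

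Of the class I deacetylases, which form the catalytic core of the main corepressor complexes, HDAC2 and HDAC1 had different orders of arrays. HDAC2 read log2 10.22 with wild-type JMJD3, 10.98 with mutant JMJD3 and 10.56 in control, so that wild-type was 1.69-fold under mutant JMJD3 and control lay between. At 242141_at, near the floor, HDAC2 read log2 5.73 with wild-type JMJD3 and 5.81 in both others. Its paralog HDAC1 read log2 11.42 with wild-type JMJD3 and 11.22 in both others. HDAC3, a catalytic subunit of corepressor complexes, was 1.39-fold over mutant JMJD3 with wild-type JMJD3.

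All 6 acetyltransferases were lower with mutant JMJD3 than in control at their brightest probe sets, with a median log2 difference of -0.24 and a range of -0.79 to -0.15. Over all measured genes 41.2% were lower in that comparison. The other measured probe set of KAT6A was higher by 0.05, and of 5 acetyltransferases in the further lists 3 were lower and 2 higher (KAT8 by 0.46 and NCOA1 by 0.18). CREBBP, the CBP coactivator, led them, at log2 10.08 with wild-type JMJD3, 9.22 with mutant JMJD3 and 10.01 in control. The mutant array was 1.73-fold under control, and probe set 228177_at was 1.26-fold under it. At 211808_s_at, near the floor, the log2 difference of mutant JMJD3 from control was -0.03. With the median over its probe sets, the log2 difference of mutant JMJD3 from control was -0.26. EP300, its paralog p300, was lower than control in both JMJD3 arrays, 1.26-fold with wild-type and 1.16-fold with mutant JMJD3.

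KAT5 (TIP60) and KAT6A (MOZ), both of the MYST family, were on opposite sides with wild-type JMJD3. KAT5, which acetylates histone H4 and ATM, read log2 9.16 with wild-type JMJD3, 8.22 with mutant JMJD3 and 8.48 in control. Wild-type JMJD3 exceeded control 1.60-fold and mutant JMJD3 1.92-fold, and both other probe sets gave the same order, although all 3 of its probe sets contain shared probes. KAT6A, which acetylates histone H3, read log2 9.33 with wild-type JMJD3, 9.94 with mutant JMJD3 and 10.09 in control. Wild-type JMJD3 was 1.69-fold under control, and 1.64-fold under it at 202423_at.

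KAT2A and KAT2B, the paralogous GCN5 and PCAF enzymes, also differed from each other. KAT2A read log2 9.39 with wild-type JMJD3, 8.89 with mutant JMJD3 and 9.07 in control. KAT2B read log2 8.47 with wild-type JMJD3, 8.53 with mutant JMJD3 and 8.92 in control, lower in both JMJD3 arrays.

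**Figure D3:**
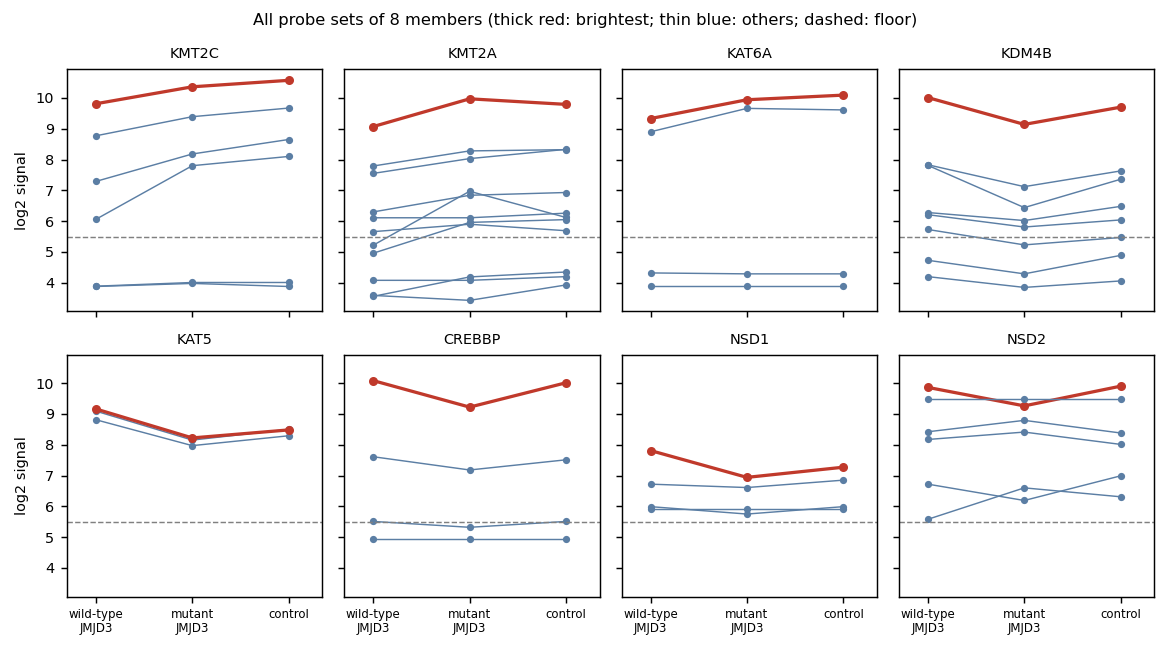
Log2 signal of every probe set of 8 enzymes in the wild-type JMJD3, mutant JMJD3 and control arrays, with the brightest probe set as a thick red line and the floor dashed. KMT2C, KMT2A and KAT6A are lowest with wild-type JMJD3 in their bright probe sets, KDM4B and KAT5 are lowest with mutant JMJD3, and the probe sets of NSD2 cross.

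The DNA methyltransferases and TET enzymes were under 1.5-fold throughout. DNMT1, which copies methylation after replication, read log2 11.22 with wild-type JMJD3, 10.78 with mutant JMJD3 and 11.26 in control, so that the mutant array was 1.39-fold under control on its single probe set. The de novo enzymes DNMT3A and DNMT3B with wild-type JMJD3 exceeded control 1.09-fold and 1.24-fold. TET2 read log2 7.99 in both JMJD3 arrays and 8.26 in control. TET3 read log2 9.18 with wild-type JMJD3, 8.89 with mutant JMJD3 and 9.39 in control. Both measured TET genes were thus lower than control in each JMJD3 array, by at most 1.41-fold. Of all measured genes, 34.2% were below control in the wild-type array and 41.2% in the mutant array. The other measured TET probe sets were lower too, but 1554641_a_at of TET3 and 235461_at of TET2 lay near the floor. The former read log2 5.6 in control and 5.49 in both JMJD3 arrays. The latter read log2 5.6 in control and was under the floor in both JMJD3 arrays. TET3 probe set 214754_at, over the floor, read log2 6.82 in control, 6.74 in the wild-type array and 6.47 in the mutant array.

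Mutant JMJD3 against control gave small, mostly downward differences. Of the 43 enzymes 30 (69.8%) were lower, 8 higher and 5 equal, with a median log2 difference of -0.13, whereas over all 12707 measured genes 41.2% were lower and the median was 0.00. None of the 43 differed by 2-fold, beside 2.98% of all genes higher and 0.535% lower by that much. At 1.5-fold, KDM1B was higher and CREBBP and NSD2 were lower, beside 9.51% of all genes higher and 3.38% lower. All 6 listed demethylases acting on lysine 9 (KDM3B, KDM4A, KDM4B, KDM4C, KDM7A and PHF2) were lower with mutant JMJD3 at their brightest probe sets. Their log2 differences were -0.57 to -0.03. All 3 lysine 36 methyltransferases were lower there too, although for NSD2 only 1 of 5 other probe sets was. The lysine 4 demethylases differed, with 3 of 4 higher. Of 7 other demethylases in the further lists 4 were lower, 2 higher and 1 equal, with KDM4D, a relative of KDM4B, higher by 0.31. NSD3, a relative of NSD1 and NSD2, was higher by 0.13. Away from the brightest probe set the direction was less even, since 30 of 51 other measured probe sets had the same sign.

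Set directly against each other, wild-type JMJD3 was higher than mutant JMJD3 for 27 of 43 enzymes, lower for 11 and equal for 5. The median log2 difference was 0.17, against 0.00 over all 12829 measured genes, of which 49.7% were higher. HDAC9 was the only one of the 43 past 2-fold, on the lower side, beside 6.2% of all genes lower and 2.61% higher by that much. At 1.5-fold, KAT5, KDM4B, NSD1, CREBBP, SUV39H1, HDAC7 and NSD2 were higher and HDAC9, KMT2A, KDM1B, HDAC2, KDM7A and KAT6A lower. That is 7 and 6 of 43, beside 11.3% of all genes higher and 15.9% lower. This comparison and the mutant one share an array, so they are not separate measurements of the low signals with mutant JMJD3. Of the other measured probe sets 37 of 52 had the sign of the brightest.

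The mutant array was the lowest of the 3 for 21 of the 43 enzymes (48.8%), and the wild-type array the highest for 21. Over 12867 measured genes the wild-type array was highest for 41.9%, a share near that of the enzymes, and the mutant array was lowest for 30.9% and highest for 30.4%. The mutant array was highest for 4 of the 43 enzymes (9.3%), which were KDM1B, KMT2A, HDAC2 and HDAC9. Without probe sets that share probes, 31 enzymes were measured, and the median for wild-type against mutant JMJD3 was 0.06 and for mutant JMJD3 against control -0.07.

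Related enzymes, partner subunits and metabolic genes were read from 7 further lists, which held 84 genes, of which 79 were analysed and all of these were measured. With wild-type JMJD3 against control, 48 were higher and 27 lower, with a median of 0.11. For mutant JMJD3 against control 31 were higher and 44 lower, with a median of -0.09, and for wild-type against mutant JMJD3 47 were higher and 29 lower, with a median of 0.13. Over all measured genes 54.4%, 45.9% and 49.7% were higher in these comparisons. Past 2-fold with wild-type JMJD3 against control were 1 higher and 2 lower (0.953% and 1.31% of all genes), with mutant JMJD3 against control 1 higher (2.98%) and 0 lower (0.535%), and for wild-type against mutant JMJD3 1 higher and 1 lower (2.61% and 6.2%).

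SETDB2, a relative of the lysine 9 methyltransferase SETDB1, read log2 7.79 with wild-type JMJD3, 8.41 with mutant JMJD3 and 9.13 in control. Wild-type JMJD3 was 2.53-fold under control, and its 4 other measured probe sets were lower as well. KAT6B, the paralog of KAT6A, read log2 8.63 with wild-type JMJD3, 8.97 with mutant JMJD3 and 9.67 in control. Wild-type JMJD3 was 2.06-fold under control, in the same direction as KAT6A, and its 3 other measured probe sets had the same sign.

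HDAC8, a class I deacetylase, read log2 8.81 with wild-type JMJD3, 7.56 with mutant JMJD3 and 8.13 in control. Wild-type JMJD3 exceeded mutant JMJD3 2.38-fold, with the same sign in 1 of its 2 other measured probe sets. TBL1XR1, a subunit of the complexes that hold HDAC3, read log2 10.58 with wild-type JMJD3, 11.61 with mutant JMJD3 and 11.31 in control, so that wild-type was 2.04-fold under mutant JMJD3. NNMT, which uses up the methyl donor S-adenosylmethionine, read log2 7.0 with wild-type JMJD3, 7.45 with mutant JMJD3 and 5.33 in control. Since control was under the floor, it was at least 2.87-fold higher with wild-type JMJD3 and at least 3.92-fold higher with mutant JMJD3.

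By list, the deacetylases and sirtuins beside the 7 above had 8 of 9 genes with wild-type over mutant JMJD3 (median 0.29), beside 49.7% of all genes. The metabolic genes had 8 of 9 with wild-type JMJD3 over control (median 0.35), beside 54.4% of all genes. With mutant JMJD3, 4 of the metabolic genes were over control and 5 under it. The 27 cofactor subunits had 15 over and 10 under control with wild-type JMJD3, and 13 in each direction with mutant JMJD3. The 7 DNA methylation partners had 2 over and 4 under control with wild-type JMJD3.

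**Figure D4:**
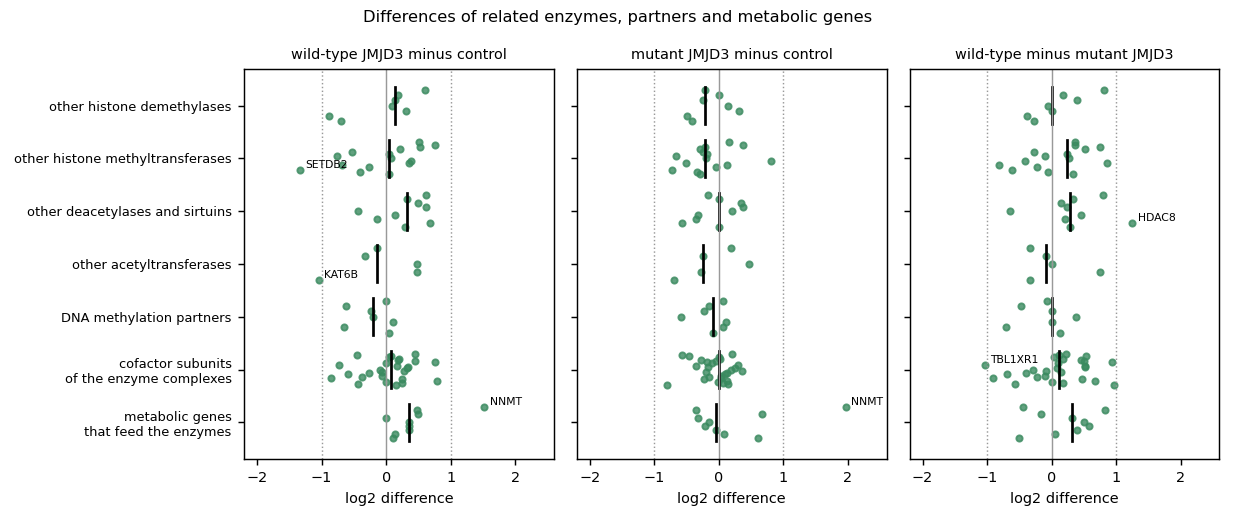
Log2 differences of 79 related enzymes, partner subunits and metabolic genes (points) in 7 lists (rows) for the same 3 comparisons, with list medians as black bars and 2-fold as dotted lines. SETDB2, KAT6B, HDAC8, TBL1XR1 and NNMT are the genes past 2-fold in at least 1 comparison.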

How the data were processed

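The deposited table holds log2 signals of 54613 probe sets, between 2.42 and 14.94. Per the submitters' processing notes the authors used MAS5, with no settings given, and how arrays were normalized to each other is not given in the labels. The 3 sorted columns differ by at most 0.14, and 21.0% of probe sets hold the same value in all arrays, so a difference of 0 does not show equal levels. Precision is limited by the number of arrays.

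Probe sets were named from the platform annotation: 41091 have 1 gene symbol, 1801 have several and 11721 are not listed. The brightest probe set by mean log2 stood for each of 19775 genes. Signals were floored at the 50th percentile of all values, and a gene was measured where 1 or both arrays compared were over it. A fold is 2 raised to the log2 difference, and it is a lower bound where 1 side is at the floor. Probe sets ending in _s_at or _x_at share probes with other transcripts.

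All 44 enzymes are accounted for, and those from 1.5-fold in a comparison are given in full. Genes of the further lists are named from 2-fold, except that KMT2E, SUV39H2, KAT8, NCOA1, KDM4D and NSD3 were named under it beside related enzymes. The enzymes, lists and rule were chosen with earlier results of these data known. The 7 alternatives were shifting arrays to 1 median, quantile normalization, a floor at the 40th or 60th percentile, an offset instead of a floor, the median over probe sets, and dropping those with shared probes. The gene step was tested on simulated data. Some genes of the further lists were not analysed here. Tables were computed in Python 3.11.15 with pandas 2.3.3 and numpy 2.4.6, and plots drawn in matplotlib 3.10.9.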

Additional observations from a re-analysis of the deposited data

How the results depend on the processing

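Under 7 alternatives the median difference of the enzymes moved by at most 0.1 on the log2 scale from its value in all but 1 case, that of wild-type against mutant JMJD3, which was 0.06 over the 31 enzymes left without shared probe sets. The counts past 2-fold are small and change by single genes. For wild-type JMJD3 against control the count of 2 was 1 under the 60th percentile floor and 1 with the offset, where HDAC9 dropped out, and 1 with the median over probe sets, where KDM7A (-0.88) dropped out and KMT2C (-1.70) came in, while HDAC9 was not measured. For wild-type against mutant JMJD3 the count of 1 held with the median over probe sets, but through KMT2C (-1.32), since HDAC9 was not measured. It was 2 with quantile normalization, through KAT5 (1.01), and 2 without shared probe sets, through NSD2. Of the enzymes at 1.5-fold or more in a comparison, NSD2 changed sign there. For mutant JMJD3 against control its log2 difference was 0.40 with the median over probe sets and 0.29 without shared probe sets, and for wild-type against mutant JMJD3 it was -0.30 and -1.02. Differences under 1.5-fold that turned with the median over probe sets were those of NSD1 (-0.06), KDM4B (-0.01) and NSD2 (0.10) for wild-type JMJD3 against control, and of KAT6A (0.03) and KMT2A (-0.01) for mutant JMJD3 against control. The same setting made wild-type against mutant JMJD3 smaller for NSD1 (0.09), CREBBP (0.31), KDM4B (0.33) and KDM7A (-0.10). KMT2A (-0.45), HDAC2 (-0.42), HDAC7 (0.40) and KAT6A (-0.36) were also smaller in that comparison, and all of these fell under 1.5-fold. For wild-type JMJD3 against control it brought KMT2A (-0.46) and KAT6A (-0.34) under 1.5-fold. For mutant JMJD3 against control the 2-fold count of 0 did not change under any of the 7. The number of enzymes lower in that comparison did change. It was 34 of 43 with quantile normalization, against 30 of 43 in the main setting. It was 26 of 40 with the median over probe sets and 19 of 31 without shared probe sets. No paired analysis was possible because each line has 1 array.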
